A study of Homo sapiens with 6 samples.

Results

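The corticosteroid receptors, the enzymes that interconvert cortisol and cortisone, and classic receptor target genes were followed in NCI-H295R, a long-established line of human adrenocortical carcinoma cells whose products include cortisol, aldosterone and adrenal androgens. The set held 10 genes of the 34869 in the deposited table, named by a fixed list of symbols and matched through their Ensembl identifiers. They are the receptor genes NR3C1 and NR3C2, the enzyme genes HSD11B1 and HSD11B2, and the targets FKBP5, TSC22D3, PER1, ZBTB16, KLF9 and SGK1. All cells were the same line, grown with fetal bovine serum and insulin-transferrin-selenium and transduced with lentivirus. The first group carried an shRNA against TPD52 (shTPD52) and the other a non-targeting control shRNA (shCtrl), with 3 libraries in each. The labels name no added steroid, time of harvest or separate cultures. The p-values therefore describe the spread among these samples alone, which may be technical. Use of 1 cancer line limits what the groups stand for.

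NR3C1 encodes the glucocorticoid receptor and NR3C2 the mineralocorticoid receptor. Both wait in the cytoplasm in complexes with HSP90 and its partner proteins, move to the nucleus when a steroid binds, and act there on glucocorticoid response elements. HSD11B1 regenerates active cortisol from cortisone and HSD11B2 does the reverse, which in aldosterone target tissue keeps cortisol away from the mineralocorticoid receptor. In the adrenal cortex the receptors sit in the cells that make their own ligands, so target genes are exposed to steroid made on site.

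Library depth, worked back from the deposited FPKM (fragments per kb of gene length, scaled to library size), ran from 29544340 to 38396624 reads. All 10 adrenocortical markers checked averaged over 1 FPKM, led by STAR at 135 FPKM. Of these markers 5 passed as higher and 1 as lower in shTPD52, 60.0% beside 18.3% of all genes tested. Markers of fibroblasts, leukocytes, endothelium and medulla that were in the table each averaged under 1 FPKM, led by the collagen gene COL1A1 at 0.801 FPKM. TPD52, the targeted gene, stood at 1.18 to 1.42 FPKM in shCtrl and at 0.630 to 0.655 FPKM in shTPD52, without overlap. It fell by 0.65 in log2 units (adjusted p = 0.0218 by limma), a call that ended after the length and GC correction (-0.49) and whenever a library but shTPD52 replicate 2 was left out. Mitochondrially encoded reads made up 17.5% to 18.5% of the shCtrl libraries and 22.5%, 19.6% and 24.3% of shTPD52 replicates 1, 2 and 3, and their part in the results below was not tested. On the first principal component, with 61% of the variance, shTPD52 replicate 2 lay at 0.29, between the shCtrl libraries (-24.1 to -16.4) and shTPD52 replicates 1 and 3 (27.3 and 35.3). Its TPD52 level, 0.635 FPKM, lay between those of shTPD52 replicates 1 and 3, and why it stands apart was not tested. Because this library stands apart, fold changes below are also given without it.

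Of the 10 genes, SGK1 and PER1 fell with the TPD52 hairpin, none rose and 8 did not pass. In the whole table limma (a linear model with moderated tests, Benjamini-Hochberg adjusted p under 0.05) called 18.3% of 12782 genes, 12.7% lower and 5.63% higher. SGK1 and PER1 were 2 of the 6 members in that table (33.3%), a number of genes too small to set against the background. With median-ratio scaling the split was even, 1083 higher and 1038 lower beside 720 and 1621. Genes averaging 1 FPKM or more entered the test. NR3C2, ZBTB16, HSD11B1 and HSD11B2 lay under that minimum and were each added alone to the fit. Of the 10, 9 had a negative log2 fold change (FKBP5, TSC22D3 and ZBTB16 turned positive after the length and GC correction, TSC22D3 with median-ratio scaling, and HSD11B1 with quantile normalization), with a median of -0.19 over the 10 and -0.29 over the 6 in the table tested, beside -0.11 for all genes tested. Median-ratio scaling moved the median of all genes to 0.00 and the length and GC correction moved it to 0.0046. The values here are not centred in this way. In a bulk sample, less RNA per cell and fewer cells with the RNA cannot be told apart.

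**Figure D1:**
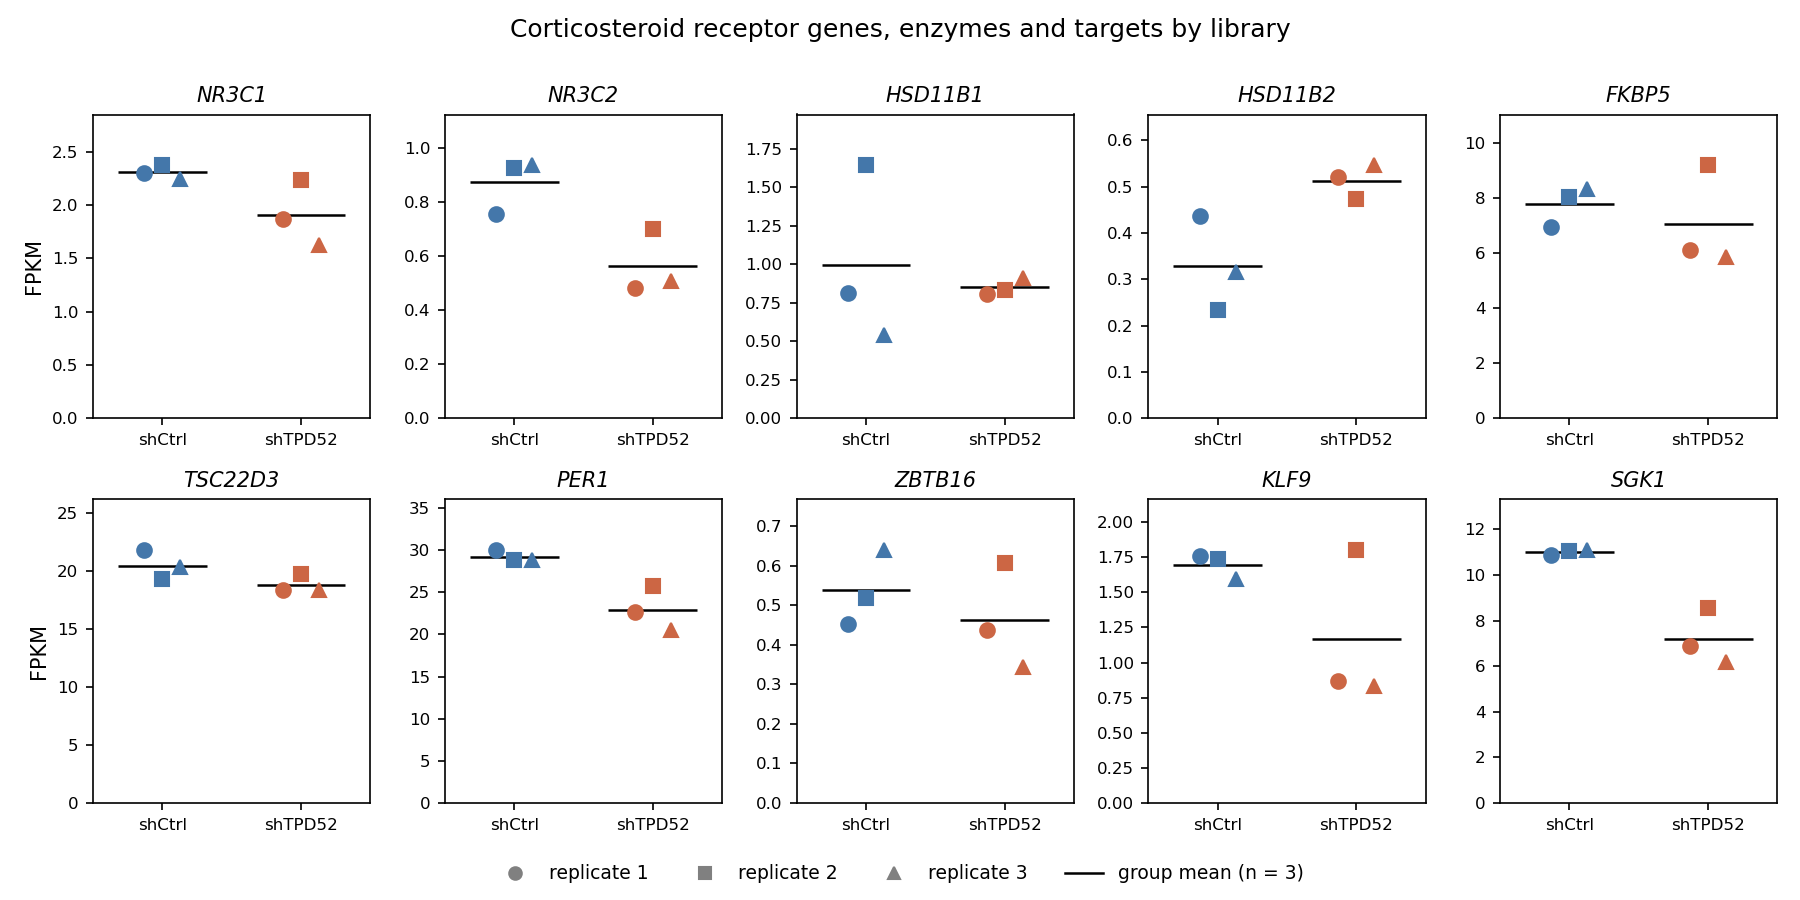
FPKM (y axes, linear from 0) of the 10 genes in each library, with 1 point per library, marker shapes for replicate numbers and a line at the group mean (n = 3). SGK1 falls from 11.0 to 7.21 FPKM and PER1 from 29.2 to 23.0 FPKM without overlap, while shTPD52 replicate 2 lies above the shCtrl mean for FKBP5, KLF9 and ZBTB16.

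The glucocorticoid receptor gene NR3C1 (ENSG00000113580, GRCh38 chromosome 5, 143277931 to 143435512, minus strand) had the higher FPKM of the 2 receptor genes. NR3C1 measured 2.30, 2.37 and 2.24 FPKM in replicates 1 to 3 of shCtrl and 1.87, 2.235 and 1.62 FPKM in those of shTPD52. All shTPD52 libraries were lower than all shCtrl libraries, with shTPD52 replicate 2 just under the lowest control. The log2 fold change was -0.23 (adjusted p = 0.223 by limma, SE 0.13). Without shTPD52 replicate 2 it was -0.33 (adjusted p = 0.0453 by limma), and after a correction that removed trends with the length and GC content of genes from every library it was -0.032 (adjusted p = 0.798 by limma).

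The mineralocorticoid receptor gene NR3C2 (ENSG00000151623, chromosome 4, 148078762 to 148444698, minus strand) had the lower FPKM. NR3C2 measured 0.755, 0.925 and 0.936 FPKM in replicates 1 to 3 of shCtrl and 0.482, 0.701 and 0.509 FPKM in those of shTPD52. The groups did not overlap, and these values rest on 171 to 228 reads a library in shCtrl and 94 to 169 in shTPD52. NR3C2 had a log2 fold change of -0.37 (adjusted p = 0.132 by limma, SE 0.16), which missed the threshold. With limma-voom on the recovered reads, which does not add 0.5 FPKM, it was -0.63 and passed (adjusted p = 0.0466 by limma). After the length and GC correction it was -0.21 (adjusted p = 0.287 by limma).

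The ratio of NR3C1 to NR3C2 does not depend on scaling of whole libraries. It was 3.05, 2.56 and 2.39 in shCtrl replicates 1, 2 and 3 and 3.87, 3.19 and 3.19 in shTPD52 replicates 1, 2 and 3. Every shTPD52 library had a higher ratio than every shCtrl library, with means 0.36 apart in log2 units (exact permutation test, two-sided, p = 0.1, n = 3 each). The smallest p that 3 against 3 libraries allow is 0.1. With 0.1 FPKM added to both genes the difference was 0.29. The ratio was not corrected for trends with length and GC, and NR3C2 rests on 94 to 228 reads a library.

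HSD11B2 (ENSG00000176387, chromosome 16, 67430652 to 67437553, plus strand), which turns cortisol into cortisone, was the only gene of the 10 with a positive fold change in the fit of all libraries. HSD11B2 measured 0.437, 0.233 and 0.315 FPKM in replicates 1 to 3 of shCtrl and 0.520, 0.472 and 0.546 FPKM in those of shTPD52. The groups did not overlap, which was so in the upward direction for 13.8% of all genes tested, and the values rest on 19 to 56 reads per library. The log2 fold change was 0.30 (adjusted p = 0.245 by limma, SE 0.18). Its exons overlap those of AC009061.1 on the other strand by 248 bases. Whether counting used strand is not given in the sources used here, so reads of the pair cannot be told apart.

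HSD11B1 (ENSG00000117594, chromosome 1, 209686178 to 209734950, plus strand), which regenerates cortisol, varied more among controls than between groups. HSD11B1 measured 0.810, 1.64 and 0.538 FPKM in replicates 1 to 3 of shCtrl and 0.806, 0.834 and 0.913 FPKM in those of shTPD52. The shTPD52 libraries lay inside the control range. Its log2 fold change of -0.081 (adjusted p = 0.837 by limma) became 0.21 without shCtrl replicate 2 (adjusted p = 0.487 by limma) and 0.037 with quantile normalization. The ratio of HSD11B2 to HSD11B1 was 0.539, 0.142 and 0.585 in shCtrl replicates 1, 2 and 3 and 0.645, 0.566 and 0.598 in shTPD52 replicates 1, 2 and 3. The groups overlapped (difference of log2 ratios 0.76, exact permutation test, two-sided, p = 0.2, n = 3 each), and without shCtrl replicate 2 the difference was 0.10. H6PD, which supplies the NADPH that HSD11B1 uses and which was named after its values were seen, had 6.29 ± 0.40 FPKM in shCtrl and 4.56 ± 0.75 FPKM in shTPD52 (SD, n = 3 each), just outside the threshold (log2 fold change -0.43, adjusted p = 0.0506 by limma).

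SGK1 (ENSG00000118515, chromosome 6, 134169246 to 134318112, minus strand) encodes the serum- and glucocorticoid-regulated kinase, a target of both receptors that raises sodium channel activity in epithelia. SGK1 measured 10.9, 11.0 and 11.1 FPKM in replicates 1 to 3 of shCtrl and 6.88, 8.57 and 6.17 FPKM in those of shTPD52. The controls were nearly level and all shTPD52 libraries lay well under them, with replicate 2 the nearest. SGK1 fell by 0.59 in log2 units (adjusted p = 0.0204 by limma, SE 0.12), to 0.654 times the control mean. It kept its call once corrected for length and GC (-0.36, adjusted p = 0.0133 by limma) and without shTPD52 replicate 2 (-0.71, adjusted p = 0.00134 by limma). The call ended without a filter (adjusted p = 0.0678 by limma) and without shCtrl replicate 1, 2 or 3 (adjusted p = 0.0715, 0.0698 and 0.0940 by limma) or shTPD52 replicate 1 (adjusted p = 0.0830 by limma).

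PER1 (ENSG00000179094, chromosome 17, 8140472 to 8156506, minus strand), a clock gene that glucocorticoids also induce, had the highest FPKM of the 10. PER1 measured 30.1, 28.9 and 28.8 FPKM in replicates 1 to 3 of shCtrl and 22.6, 25.8 and 20.5 FPKM in those of shTPD52. The groups did not overlap. PER1 fell by 0.35 in log2 units (adjusted p = 0.0435 by limma, SE 0.096), to 0.785 times the control mean. The call rests on the processing: it ended with median-ratio scaling (-0.23, adjusted p = 0.0791 by limma) and once corrected for length and GC (-0.071, adjusted p = 0.557 by limma). It also ended without shCtrl replicate 1, 2 or 3 (adjusted p = 0.131, 0.119 and 0.137 by limma) and without shTPD52 replicate 1 or 3 (adjusted p = 0.133 and 0.102 by limma), and held without shTPD52 replicate 2 (-0.43, adjusted p = 0.00374 by limma). Without a filter or the variance trend the call ended (adjusted p = 0.113 and 0.0642 by limma). The call held with quantile normalization (-0.31, adjusted p = 0.0432 by limma), limma-voom (adjusted p = 0.0346) and a filter of 5 FPKM (adjusted p = 0.0313 by limma). MIR6883 lies within PER1 on the same strand, over 78 exonic bases.

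KLF9, FKBP5 and ZBTB16 were set apart by shTPD52 replicate 2. KLF9 (ENSG00000119138, chromosome 9, 70384597 to 70414624, minus strand) encodes a zinc finger factor and is induced early by glucocorticoids. KLF9 measured 1.76, 1.74 and 1.60 FPKM in replicates 1 to 3 of shCtrl and 0.872, 1.80 and 0.836 FPKM in those of shTPD52. For shTPD52, replicate 2 was the highest of all 6 libraries and the other two the lowest. The log2 fold change was -0.44 (adjusted p = 0.172 by limma, SE 0.22) with all libraries and -0.70 (adjusted p = 0.00503 by limma) without shTPD52 replicate 2.

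FKBP5 (ENSG00000096060, chromosome 6, 35573585 to 35728583, minus strand) encodes FKBP51, a co-chaperone that lowers the receptor's affinity for its ligand and closes a short feedback loop. FKBP5 measured 6.94, 8.04 and 8.34 FPKM in replicates 1 to 3 of shCtrl and 6.10, 9.20 and 5.86 FPKM in those of shTPD52. Again replicate 2 was the highest of the 6 libraries and the other two shTPD52 libraries were the lowest. The log2 fold change was -0.15 (adjusted p = 0.52 by limma, SE 0.17). It was -0.35 (adjusted p = 0.0240 by limma) without shTPD52 replicate 2 and turned to 0.071 once corrected for length and GC (adjusted p = 0.594 by limma).

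ZBTB16 (ENSG00000109906, chromosome 11, 114059593 to 114250676, plus strand), which encodes the repressor PLZF and is strongly induced by glucocorticoids in many tissues, was low. ZBTB16 measured 0.453, 0.519 and 0.640 FPKM in replicates 1 to 3 of shCtrl and 0.437, 0.608 and 0.343 FPKM in those of shTPD52, with overlap. Its log2 fold change was -0.11 (adjusted p = 0.671 by limma), and it turned to 0.27 once corrected for length and GC (adjusted p = 0.239 by limma).

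TSC22D3 (ENSG00000157514, chromosome X, 107713221 to 107777342, minus strand) encodes GILZ, a leucine zipper protein that carries anti-inflammatory effects of glucocorticoids. TSC22D3 measured 21.8, 19.3 and 20.3 FPKM in replicates 1 to 3 of shCtrl and 18.3, 19.8 and 18.4 FPKM in those of shTPD52. The groups overlapped, and the log2 fold change of -0.12 (adjusted p = 0.317 by limma, SE 0.082) was close to the median of all genes tested. It was 0.0031 under median-ratio scaling and 0.022 with the length and GC correction.

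In all, shTPD52 replicate 2 was the highest of its group for 8 of the 10 genes, beside 52.8% of all genes tested. With it left out, 5 of the 10 passed, all lower (NR3C1, FKBP5, PER1, KLF9 and SGK1), where 32.9% of all genes tested passed as lower in the same fit. All 5 are among the 6 genes in the table tested. The other log2 fold changes without it were -0.46 for NR3C2, -0.22 for ZBTB16, -0.15 for TSC22D3, -0.073 for HSD11B1 and 0.33 for HSD11B2 (adjusted p = 0.0561, 0.385, 0.135, 0.859 and 0.236 by limma). All shTPD52 libraries lay under all shCtrl libraries for 4 of the 10 (NR3C1, NR3C2, PER1 and SGK1), beside 28.3% of all genes tested. These shares are over genes averaging at least 1 FPKM. NR3C2, ZBTB16, HSD11B1 and HSD11B2 lie under that minimum, so the sets are unlike, and the genes are too few to set against the shares.

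**Figure D2:**
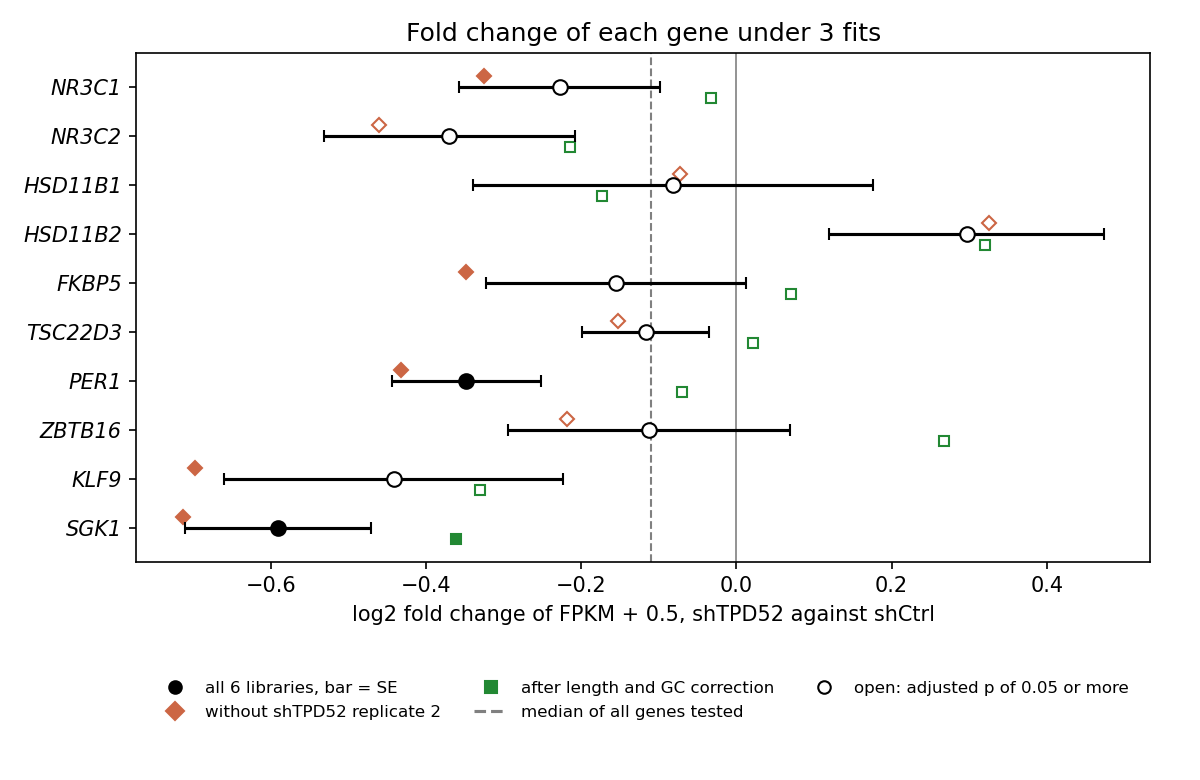
Log2 fold change of FPKM + 0.5 (x axis) of each gene in the fit of all 6 libraries (circles, bars are SE), without shTPD52 replicate 2 (diamonds) and once corrected for length and GC (squares), filled where adjusted p was under 0.05. SGK1 is filled in all 3 fits, from -0.71 to -0.36, while PER1 moves from -0.35 to -0.071 with the correction and FKBP5, TSC22D3 and ZBTB16 cross 0.

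Levels per length could be ordered within the controls. The order rests on the gene length that each FPKM was divided by, taken as 9990 bases for SGK1 and 7002 for PER1. It may differ from the order of transcript numbers where the transcripts present are shorter. From high to low the shCtrl means were PER1 at 29.2 ± 0.71 FPKM, TSC22D3 at 20.5 ± 1.28, SGK1 at 11.0 ± 0.11, FKBP5 at 7.77 ± 0.74 and NR3C1 at 2.31 ± 0.067 FPKM (SD, n = 3 each). KLF9 followed at 1.70 ± 0.089, HSD11B1 at 0.997 ± 0.58, NR3C2 at 0.872 ± 0.10, ZBTB16 at 0.537 ± 0.095 and HSD11B2 at 0.328 ± 0.10 FPKM (n = 3 each). Library ranges of neighbours overlapped only for KLF9 with HSD11B1 and for HSD11B1 with NR3C2. In shTPD52 the order of the means was the same except that HSD11B2, at 0.513 FPKM, stood above ZBTB16 at 0.463 FPKM.

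The bases upstream of SGK1 and PER1, the 2 genes that passed, and of FKBP5 are shown because these are textbook targets of the receptors. RefSeq upstream windows (GRCh38.p14, 250 bases before an annotated start) were found for 8 of the 10 genes, 23 windows in all, and ZBTB16 and HSD11B2 had none. Each is printed 5′ to 3′ on the minus strand, as the stretch that no annotated exon covers, with the E-box CACGTG in capitals. For SGK1, with 3 windows, and FKBP5, with 2, it is the one nearest the gene's 3′ end.
PER1, chr17:8152436-8152654: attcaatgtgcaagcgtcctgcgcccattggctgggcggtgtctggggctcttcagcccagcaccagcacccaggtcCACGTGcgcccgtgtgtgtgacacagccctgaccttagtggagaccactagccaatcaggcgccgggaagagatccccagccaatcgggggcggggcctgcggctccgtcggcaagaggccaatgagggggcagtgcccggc
SGK1, chr6:134174897-134175116: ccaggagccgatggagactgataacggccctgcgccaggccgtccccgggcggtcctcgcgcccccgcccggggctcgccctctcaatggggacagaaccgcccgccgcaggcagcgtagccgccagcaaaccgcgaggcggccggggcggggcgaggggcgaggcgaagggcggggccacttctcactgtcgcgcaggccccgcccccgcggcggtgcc
FKBP5, chr6:35688943-35689165: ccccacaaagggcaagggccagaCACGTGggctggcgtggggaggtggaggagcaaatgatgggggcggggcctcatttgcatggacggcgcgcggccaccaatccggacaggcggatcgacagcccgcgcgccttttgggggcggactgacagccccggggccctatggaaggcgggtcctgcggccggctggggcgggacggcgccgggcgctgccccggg
An E-box, the site of the clock factors CLOCK and BMAL1, was in 2 of the 23 windows. These were the windows printed for PER1 and FKBP5 (first base 173 and 227 bases before the start). It was in 6.34% of 35116 RefSeq windows of that length, and 2 of 23 is near that share. The full glucocorticoid response element (AGAACA and its reverse complement TGTTCT, 3 bases apart), the hexamer AGAACA alone and the cyclic AMP response element TGACGTCA, all searched on both strands, were in none of the 23 windows. They were in 0.00285%, 12.4% and 1.65% of all windows, and every full element also counts as a hexamer match. These letters are absent from these windows only, and elements farther away were not searched.

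Other genes that glucocorticoids induce moved in both directions. Of 34 tested of a list of 46, 4 rose, 8 fell and 22 did not pass, 35.3% beside 18.3% of all genes. The median log2 fold change was -0.23 beside -0.11. Under median-ratio scaling 5 rose and 5 fell (median -0.12 beside 0.0005 for all genes). Quantile normalization gave 6 and 5 (median -0.13 beside -0.0069). With trends of length and GC removed, the counts were 5 and 7 (median -0.18 beside 0.0046). The part of centring in these shifts was not tested. IL1R2, the decoy receptor for interleukin 1, rose from 3.08 ± 0.16 to 6.64 ± 0.76 FPKM (n = 3 each), by 0.99 in log2 units (adjusted p = 0.00533 by limma). RHOB, a small GTPase gene, fell from 160 ± 15.3 to 95.9 ± 7.09 FPKM (n = 3 each), by 0.73 (adjusted p = 0.00824 by limma). ERRFI1, a brake on the EGF receptor, fell from 8.16 ± 0.21 to 4.36 ± 0.81 FPKM (n = 3 each), by 0.85 (adjusted p = 0.011 by limma). The call of ERRFI1 ended when shTPD52 replicate 1 or shCtrl replicate 1 or 3 was left out, and those of RHOB and IL1R2 held without any 1 library. The list held 1 higher and 1 lower gene when shTPD52 replicate 1 or shCtrl replicate 1 or 3 was left out. It held 1 and 2 without shCtrl replicate 2, 2 and 4 without shTPD52 replicate 3, and 5 and 15 without shTPD52 replicate 2. Calls moved across the whole table too. Of all 12782 genes tested, 48 and 39 passed as higher and lower without shCtrl replicate 3, and 1616 and 4209 without shTPD52 replicate 2.

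In the list of chaperones of the receptor complex, the genes that passed were higher. That list also took in the nuclear import genes TNPO1, IPO8 and KPNA2, so its counts and median are not of chaperones alone. All 18 of the list were tested, 5 rose, none fell and 13 did not pass, 27.8% called beside 18.3% of all genes, and the median log2 fold change was 0.21 beside -0.11. Of the 18, 4 had negative values, PPP5C and the import genes TNPO1, IPO8 and KPNA2. HSPA8, the constitutive HSP70, rose from 199 ± 6.43 to 299 ± 16.5 FPKM (n = 3 each), by 0.58 in log2 units (adjusted p = 0.00797 by limma). DNAJB1 and DNAJA1, its HSP40 partners, rose by 0.55 and 0.40 (adjusted p = 0.0109 and 0.020 by limma). After median-ratio scaling 8 were higher and after the length and GC correction 9, with none lower in either. Without shTPD52 replicate 2, 9 were higher and 3 lower (PPP5C, TNPO1 and IPO8), beside 1616 higher and 4209 lower of all 12782 genes tested. Leaving out shCtrl replicate 3 left none higher, leaving out shCtrl replicate 1 or shTPD52 replicate 1 left 1, and leaving out shCtrl replicate 2 left 3. In those fits 48, 99, 65 and 179 of all genes tested were higher.

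Among receptor coregulators, the genes that passed were lower. Of 27 tested of 28, none rose, 7 fell and 20 did not pass, 25.9% called beside 18.3% of all genes, and the median log2 fold change was -0.36 beside -0.11. NCOA3, a steroid receptor coactivator, fell from 4.82 ± 0.59 to 2.11 ± 0.89 FPKM (n = 3 each), by 1.07 in log2 units (adjusted p = 0.0209 by limma). CARM1, an arginine methyltransferase that joins coactivators, fell by 0.57 (adjusted p = 0.0131 by limma) and the SUMO ligase gene PIAS1 by 0.70 (adjusted p = 0.0216 by limma). After the length and GC correction the list median was -0.14, with 1 higher and 5 lower. None was lower without any 1 shCtrl library or shTPD52 replicate 1, 3 were without shTPD52 replicate 3, and 18 without shTPD52 replicate 2. Over all 12782 genes tested, 39 to 271 were lower without 1 shCtrl library. Without shTPD52 replicates 1, 3 and 2 these were 94, 575 and 4209.

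**Figure D3:**
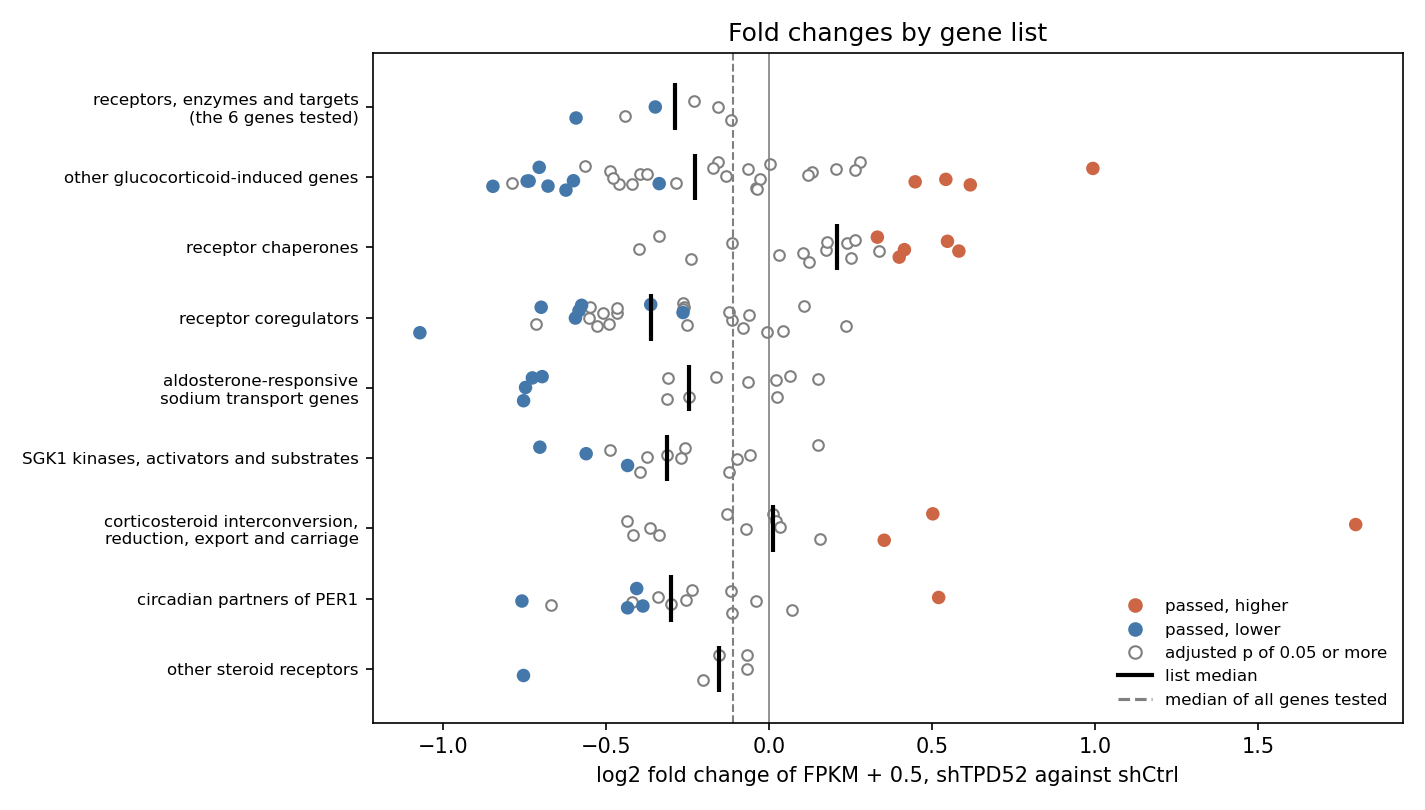
Log2 fold change of FPKM + 0.5 (x axis) of every tested gene of each list (rows), coloured where adjusted p was under 0.05, with the list median as a bar and the median of all genes tested, -0.11, as a dashed line. The list medians run from -0.36 for coregulators to 0.21 for the chaperone list with its import genes, and most genes of both lists did not pass.

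Among sodium transport genes and the kinases around SGK1, the genes that passed in the fit of all libraries were lower. Of 13 tested of 23 sodium transport genes that respond to aldosterone, 4 fell and 9 did not pass, 30.8% called beside 18.3% of all genes (median log2 fold change -0.24 beside -0.11). SLC12A2, the NKCC1 cotransporter gene, fell by 0.75, the kinase gene WNK1 by 0.73 and the sodium-proton exchanger gene SLC9A3 by 0.70 in log2 units (adjusted p = 0.0331, 0.0389 and 0.0375 by limma). The epithelial sodium channel genes SCNN1A, SCNN1B and SCNN1G lay under the minimum, at 0.256, 0.039 and 0.081 FPKM in shCtrl and 0.382, 0.032 and 0.446 FPKM in shTPD52 (means, n = 3 each). They were not tested. SCNN1A and SCNN1B overlapped between groups. SCNN1G was higher in every shTPD52 library, on 40 to 61 reads a library against 6 to 13 in shCtrl. Of 13 tested of 17 kinases, activators and substrates around SGK1, 3 fell and 10 did not pass (median log2 fold change -0.31), and the 23.1% called is near the 18.3% of all genes. NDRG1, a substrate of SGK1, fell by 0.70, the upstream kinase gene MTOR by 0.56 and AKT1, which encodes a related kinase that acts in parallel, by 0.43 (adjusted p = 0.0230, 0.0304 and 0.0247 by limma). After the length and GC correction the medians were -0.0093 and -0.055, and 3 and 1 genes were lower. In each list 1 gene was higher, and it was the same gene, NDRG2, which is on both (0.395, adjusted p = 0.0247 by limma). AKT1 had -0.085 and NDRG1 lost its call (adjusted p = 0.0907 by limma). Without any 1 library other than shTPD52 replicate 2 neither list had a gene lower, and without that one 7 and 9 genes were. In the same fits 39 to 575 of all 12782 genes tested were lower without 1 of the other libraries, and 4209 without shTPD52 replicate 2.

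Enzymes and carriers that handle corticosteroids gave 3 calls. Of 13 tested of 21, 3 rose, 10 did not pass and none fell. The 23.1% called is near the 18.3% of all genes. The median log2 fold change was 0.013 beside -0.11. HSD3B2, which makes the precursors of cortisol and aldosterone, rose by 1.80 (adjusted p = 0.00138 by limma), the carbonyl reductase gene CBR1 by 0.50 (adjusted p = 0.0271 by limma) and CYP21A2, the 21-hydroxylase, by 0.35 (adjusted p = 0.0353 by limma). CYP21A2 has a near-identical pseudogene, so its level is uncertain. HSD3B2 and CYP21A2 are also among the adrenocortical markers counted above. Only HSD3B2 passed without any 1 library other than shTPD52 replicate 2, and 3 genes were higher and 3 lower without that one. Across all 12782 genes tested, 1616 were higher and 4209 lower without shTPD52 replicate 2.

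Of 15 tested of 19 clock genes around PER1, 1 rose, 4 fell and 10 did not pass, 33.3% called beside 18.3% of all genes (median log2 fold change -0.30 beside -0.11). With median-ratio scaling or quantile normalization 1 was higher and 2 lower. The length and GC correction left 1 higher and 1 lower. CRY1, a repressor partner of the PER proteins, fell from 7.51 ± 0.082 to 4.27 ± 0.63 FPKM (n = 3 each), by 0.76 in log2 units (adjusted p = 0.0109 by limma). The PER kinases CSNK1D and CSNK1E fell by 0.43 and 0.39 (adjusted p = 0.0219 and 0.0266 by limma), calls that ended once corrected for length and GC (-0.097 and -0.12), as did that of CSNK1E with median-ratio scaling (adjusted p = 0.0911 by limma). PER2, under the minimum and named after its values were seen, measured 1.18, 0.985 and 1.05 FPKM in replicates 1 to 3 of shCtrl and 0.428, 0.535 and 0.398 FPKM in those of shTPD52, without overlap. No gene of the list was lower when shTPD52 replicate 1 or shCtrl replicate 1 or 3 was left out, 1 was without shCtrl replicate 2 or shTPD52 replicate 3, and 10 were without shTPD52 replicate 2. As above, 39 to 575 of all genes tested were lower without 1 of the other libraries, and 4209 without shTPD52 replicate 2.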

How the data were processed

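RNA of 6 NCI-H295R libraries was sequenced in pairs, and the authors deposited FPKM per gene, 1 column per library. GRCh38 (hg38), HISAT2 2.2.1 and featureCounts 2.0.3 are listed, without roles, in the submitters' processing notes. Which annotation and strand setting were used is not given there. Identifiers gave symbols for 34864 genes, and positions come from GENCODE release 29.

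Fold changes are differences of mean log2(FPKM + 0.5), which understate changes of low genes. They were tested with limma 3.58.1 (R 4.3.3; intensity trend, two-sided) over the 12782 genes averaging at least 1 FPKM, with Benjamini-Hochberg adjustment; genes under it, TPD52 included, were each added alone. Reads were recovered as FPKM times length times library total, with lengths from GENCODE or searched for so that all values came out whole (tolerance 0.02), which does not check the recovery. Odd numbers made up 28.0% to 31.2% of counts from 1 to 20, the pattern that counting both mates leaves, so reads may stand for fewer fragments. Depth limits cover counting error only. The loess correction (span 0.3) used length and GC of 99.4% of tested genes. It also centres each library, so shifts after it are not of length and GC alone.

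Members and lists were chosen with earlier results of these data known. Some genes are on more than 1 list, so the lists are not independent. A marker among the lists is not reported here. The naming rule took all 10 genes, TPD52, the 3 passing genes of each list with the smallest p, and the 3 coding genes most alike NR3C1 and SGK1. Other genes named in the text were not set by that rule. Scripts were tested on simulated data. Same-numbered libraries correlated in their deviations at 0.045, 0.248 and 0.022, and unlike-numbered ones at -0.287 to 0.283. With so few libraries this cannot settle whether the numbers pair the samples, and the main fit did not pair them. Alternatives were pseudocounts of 0.1 and 1, no filter or 5 FPKM, median-ratio and quantile scaling, no variance trend, the replicate block, the length and GC correction, limma-voom on recovered reads, and leaving out each library.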

Additional observations from a re-analysis of the deposited data

How the results depend on the processing

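Genes called higher and lower numbered 720 and 1621; without a filter 177 and 354, with median-ratio scaling 1083 and 1038, with quantile normalization 1152 and 1188, and after the length and GC correction 1339 and 1331. Leaving out 1 library gave 48 to 1616 higher and 39 to 4209 lower: 99 and 127, 179 and 271, and 48 and 39 without shCtrl replicates 1, 2 and 3, and 65 and 94, 1616 and 4209, and 322 and 575 without shTPD52 replicates 1, 2 and 3. The replicate block, which does not rest on a known pairing, gave PER1 -0.35 (adjusted p = 0.0400 by limma) and SGK1 -0.59 (adjusted p = 0.0162 by limma) and changed no call among the 10 genes. PER1 lost its call without a filter (-0.35, adjusted p = 0.113 by limma), without the variance trend (-0.35, adjusted p = 0.0642), with scaling by median ratio (-0.23) and with trends of length and GC removed (-0.071), SGK1 without a filter (-0.59). NR3C2 passed with limma-voom (-0.63). Signs turned for FKBP5 (0.071), TSC22D3 (0.022) and ZBTB16 (0.27) after the correction, TSC22D3 with median-ratio scaling (0.0031), and HSD11B1 with quantile normalization (0.037) and without shCtrl replicate 2 (0.21). TPD52 lost its call without a filter (-0.65), with one of 5 FPKM (-0.65) and after the correction (-0.49). The cause was not tested. Leaving out 1 library gave log2 fold changes of -0.33 to -0.14 for NR3C1, -0.35 to -0.045 for FKBP5, -0.43 to -0.27 for PER1, -0.70 to -0.31 for KLF9, -0.31 to 0.21 for HSD11B1, -0.71 to -0.49 for SGK1 and -0.70 to -0.60 for TPD52. The order of shCtrl means held for 8 to 9 of 9 neighbouring pairs. Of the 135 tested list genes, 13 were higher and 27 lower. They numbered 4 and 5 without a filter, 17 and 19 with median-ratio scaling, and 20 and 18 after the correction. The scaling and the correction both centre all genes near 0, and the part of centring in these more even splits was not tested. With the replicate block 42 were lower, and without 1 library 2 to 18 were higher and 1 to 65 lower. HSD11B1 and HSD11B2, at 19 to 76 reads a library, are limited by depth.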

Other observations

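Of 5 tested of a list of 7 other steroid receptor genes, 1 passed, where 18.3% of all genes did. ESRRG, an estrogen-related orphan receptor, fell from 1.65 ± 0.24 to 0.801 ± 0.38 FPKM (SD, n = 3 each), by 0.75 in log2 units (adjusted p = 0.0469 by limma). The ESRRG call ended with median-ratio scaling, with a pseudocount of 0.1, with no filter (adjusted p = 0.0544, 0.053 and 0.149 by limma) and when any library but shTPD52 replicate 2 was left out. Without that one, 2 genes of the list were lower, where 32.9% of all genes tested passed as lower.

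The coding genes whose log2(FPKM + 0.5) followed NR3C1 most closely over the 6 libraries, of 10704 compared, were CUL4A, a cullin of a ubiquitin ligase (Pearson r 0.9991), RAD21, a cohesin subunit (0.998), and ATF1, a CREB family factor (0.9979). Their log2 fold changes were -0.25, -0.41 and -0.34 and did not pass (adjusted p = 0.136, 0.0950 and 0.107 by limma). For SGK1 they were CABIN1, a calcineurin inhibitor (0.9997), WDTC1 (0.9993) and FKBP9 (0.999), which fell by 0.38, 0.54 and 0.36 (adjusted p = 0.0355, 0.0185 and 0.0353 by limma). After the length and GC correction CABIN1 had -0.063 (adjusted p = 0.499 by limma). All 6 libraries share the group difference and shTPD52 replicate 2, so such likeness is a description only.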
